A study of Mus musculus with 7 samples.

Results

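Glycolysis breaks glucose down to pyruvate, and 35 genes of that route and of its exits were followed here in whole mouse retina. They are the glycolytic enzymes, the PFKFB enzymes that set the level of the activator fructose 2,6-bisphosphate, the glucose and lactate transporters, lactate dehydrogenase, the mitochondrial pyruvate carrier, pyruvate dehydrogenase and its kinases. Members were taken by gene symbol from the deposited count table, and all 35 symbols were found among its 54532 gene rows. Where a symbol had more than 1 row, the row with most counts was used, which concerned Aldoa alone. The libraries were made from poly-A RNA of retinas of mice that received an infusion of Ang II (angiotensin II, a hormone that constricts vessels and raises blood pressure), 4 libraries, or of saline, 3 libraries, all labelled day 28. The series text names the mice of both groups as ApoE-/-, while the sample labels of both groups give the genotype as WT. The age and sex of the mice, the dose, and the number of animals behind a library are not given in the sources used here. The p-values therefore measure the spread between these libraries, which may be technical.

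The retina is known for converting most of its glucose to lactate even with oxygen present, a habit called aerobic glycolysis that is placed mainly in photoreceptors. Hexokinase 2, the M2 form of pyruvate kinase and lactate dehydrogenase A are the isoenzymes usually named with it. Glucose reaches photoreceptors from the choroid through the GLUT1 transporter (Slc2a1) of the pigment epithelium, and lactate leaves cells through monocarboxylate transporters, encoded by some of the Slc16a genes. MCT1 and MCT4 need the chaperone basigin (Bsg) to reach the membrane. Pyruvate that is not made into lactate enters mitochondria through the MPC1 and MPC2 carrier and is oxidised by pyruvate dehydrogenase, which the PDK kinases switch off.

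The 3 stretches of DNA that follow lie before starts of Hk2, Ldha and Slc16a3. They are shown because Hk2 was called in 1 alternative fit, Ldha had the smallest p of the members, and Slc16a3 followed the library order of Hk2, and they were picked with their matches in view. They are the 250 bases before the transcription start, from RefSeq on GRCm38.p6, in the direction of transcription. Those of Ldha and Slc16a3 precede RefSeq starts that lie inside the span the count table gives for these genes. Capitals mark ACGTG or its reverse complement CACGT, the core of the hypoxia response element, searched on both strands. The 6-letter run CACGTG, an E-box, holds both.
Hk2, chr6:82774455-82774704, minus strand: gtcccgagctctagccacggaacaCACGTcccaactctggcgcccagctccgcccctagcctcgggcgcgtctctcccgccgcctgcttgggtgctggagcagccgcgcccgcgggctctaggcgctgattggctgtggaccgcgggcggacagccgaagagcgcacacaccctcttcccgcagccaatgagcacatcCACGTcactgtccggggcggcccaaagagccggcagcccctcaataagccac
Ldha (the first of 2 listed starts), chr7:46845554-46845803, plus strand: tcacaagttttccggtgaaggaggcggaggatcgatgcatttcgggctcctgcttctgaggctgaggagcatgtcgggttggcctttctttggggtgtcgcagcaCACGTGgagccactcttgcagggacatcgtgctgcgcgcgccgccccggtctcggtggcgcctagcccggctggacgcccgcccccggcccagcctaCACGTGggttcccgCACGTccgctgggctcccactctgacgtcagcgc
Slc16a3, chr11:120948817-120949066, plus strand: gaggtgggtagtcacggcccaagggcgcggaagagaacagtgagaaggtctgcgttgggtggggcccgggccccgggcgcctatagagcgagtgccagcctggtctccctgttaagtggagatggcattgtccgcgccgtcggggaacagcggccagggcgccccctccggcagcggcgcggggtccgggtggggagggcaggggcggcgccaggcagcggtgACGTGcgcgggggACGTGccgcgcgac
Counted from the start, the Hk2 stretch had the core at -226 to -222 and at -52 to -48. The Ldha stretch had CACGTG at -145 to -140 and at -48 to -43, and CACGT at -34 to -30. The Slc16a3 stretch had ACGTG at -27 to -23 and at -14 to -10. The core was in none of the stretches of Pfkfb1, Gapdh, Pdk4 and Pfkp, which are also described in detail, nor before the second start of Ldha. Of the 35 members, 32 had at least 1 start in the promoter table, and 19 of their 52 stretches (36.5%) held the core, against 16.6% of all 32851 stretches and 17.8% of the 21263 stretches of protein-coding genes. Counted by gene, the core lay before at least 1 start of 15 of the 32 members (46.9%), against 18.5% of all genes and 20% of protein-coding genes. These figures were not adjusted for the number of starts, and a gene with more starts has more stretches that can match. Stretches of a gene can also overlap, and overlapping stretches of Aldoa held the same match. A match of letters is a description of the sequence, and no binding was measured here.

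One control library stood apart from the rest. Saline replicate 2 had 21260 genes with a count, against 24024 to 24846 in the other 6 libraries, and lay at 59.3 on the first principal component of log2 CPM, where the others lay between -30.8 and 3.74. It was the highest of the 7 libraries in 9 members and the lowest in 9. Without it 27 members lay below 0, in place of 23, and 0 were called by edgeR.

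In the comparison of Ang II with saline, 0 of the 35 members passed with the quasi-likelihood test of edgeR after Benjamini-Hochberg adjustment over all genes (adjusted p under 0.05). All 35 passed the filter on low counts, and the smallest adjusted p among them was 0.982. The same test called 0 of 17078 genes (0%), and DESeq2 called 35 genes (0.205%) and 0 members. At an unadjusted p under 0.05 there was 1 member, Ldha, where 789 genes (4.62%) had such a p, 1.72% lower and 2.9% higher in Ang II. That count of members was 3 with DESeq2 (797 of 17078 genes), 7 without Ang II replicate 4 (1143 of 16890) and 5 without saline replicate 3 (1339 of 17553). With the replicate number added to the fit as a block it was 9 (1310 of 17078). It was 0 without Ang II replicate 1, 2 or 3 or saline replicate 1, where 542 to 663 genes had such a p. A log2 fold change below 0, that is a lower fitted level in Ang II, was found for 23 members, against 51.1% of all genes tested. The median log2 fold change was -0.08 over the members and -0.005 over all genes tested (fold changes are Ang II over saline). Both groups overlapped in every member but Pfkfb1, which lay higher in each Ang II library than in any saline library, as 3.18% of all genes did. In the other direction the figure was 0 members, and 2.73% of all genes, which makes 5.91% for both directions.

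**Figure D1:**
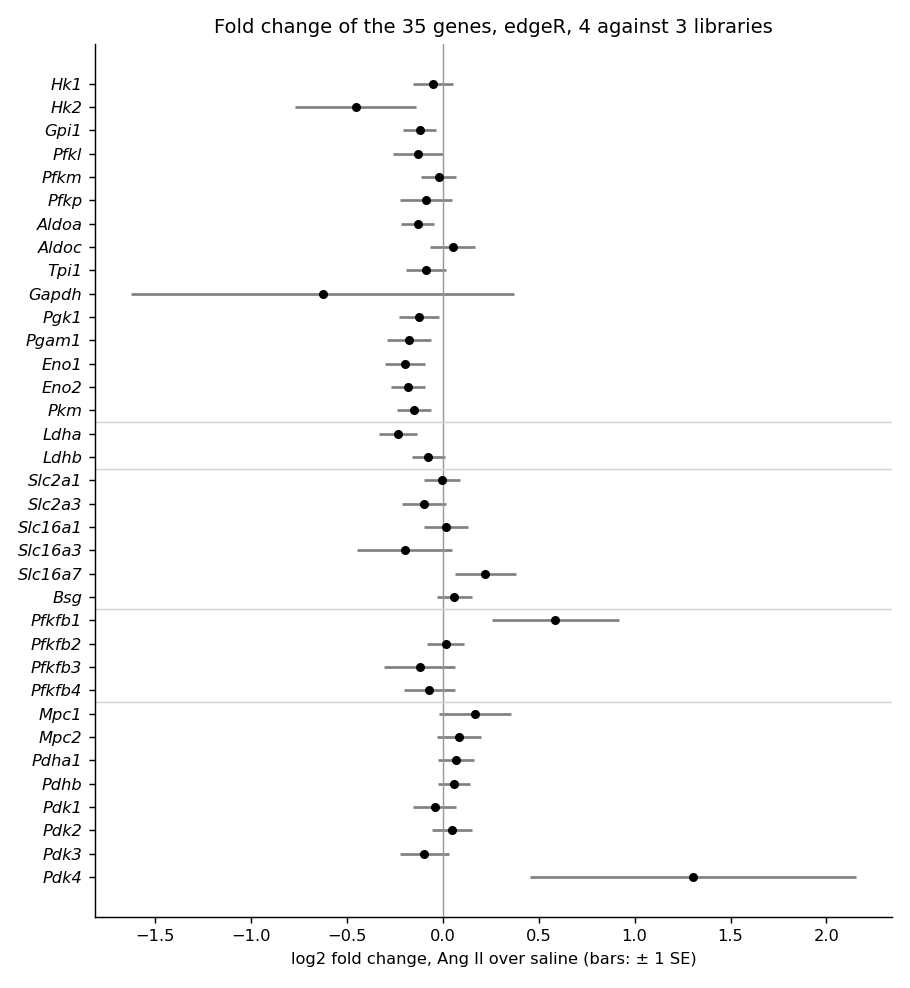
Log2 fold change of each of the 35 genes, Ang II over saline (horizontal axis), as points with bars of ± 1 SE from edgeR on 4 Ang II and 3 saline libraries; grey lines separate glycolytic enzymes, lactate dehydrogenases, transporters with basigin, PFKFB enzymes, and pyruvate entry. The points of 14 of the 15 glycolytic enzymes lie left of 0, and the widest bars belong to Gapdh and Pdk4.

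The fitted values were counted by step of the pathway. Among the 15 glycolytic enzymes 14 lay below 0, their median log2 fold change being -0.13 and their range from -0.63 (Gapdh) to 0.05 (Aldoc). Without each library in turn between 11 (without saline replicate 3) and 14 of them lay below 0. Both lactate dehydrogenases lay below 0. Of the 6 transport genes 3 lay below 0 (median 0.01), and of the 4 PFKFB genes 2 did (median -0.03). Of the 8 genes of pyruvate entry 6 lay above 0 (median 0.06), but without saline replicate 2 only 3 did (median -0.005), so 1 library set the direction of that group. Whether the steps differ from each other was not tested. A lower level of the enzymes was part of what was known of these data when the genes were chosen, so these counts are a description and carry no test. The summed level of the 15 enzymes was 11290, 11780, 11840 and 12650 CPM for Ang II (replicates 1 to 4) and 14050, 13120 and 12300 CPM for saline (replicates 1 to 3). CPM are the counts of a gene scaled to a common library size. Saline replicate 3 was thus below Ang II replicate 4, and the groups overlapped. In bulk tissue, fewer cells of a type and less RNA per cell cannot be told apart.

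Levels between genes were compared as CPM per kilobase of the gene length that the table gives, averaged over the 7 libraries. Aldoa, the main aldolase, which splits fructose 1,6-bisphosphate, had the highest level with 717 CPM per kilobase. It was followed by the pyruvate kinase gene Pkm (511), Bsg (400.4), the enolase gene Eno1 (362), Pgam1, which encodes phosphoglycerate mutase (279.6), Ldha (249.5), Tpi1, which encodes triosephosphate isomerase (216), and the phosphoglycerate kinase gene Pgk1 (209). In all 7 libraries Aldoa lay between 665 and 806 and Pkm between 469 and 592, so the first place was clear of the second. From Bsg down to Pgk1, the range of each gene overlapped that of the next. Genes of pyruvate entry were far lower, from 29.9 CPM per kilobase for the pyruvate dehydrogenase subunit gene Pdhb and 24.1 for Pdk2 down to 4.59 for Mpc1 and less for Pdk4. The lowest members were Slc16a7 (1.08), Pdk4 (0.497) and Pfkfb1 (0.432). The gene lengths equalled the union of all annotated exons in GENCODE M21 for 34 of the 35 members, so a gene with long, rarely used exons is understated. The order given holds for these lengths only. For Eno1 they were 5379 bases, against 2027 for its principal transcript, and for Bsg 1814 against 1526, so Eno1 is understated more than Bsg. Mpc2, with 7344 against 1025 bases, is understated too.

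**Figure D2:**
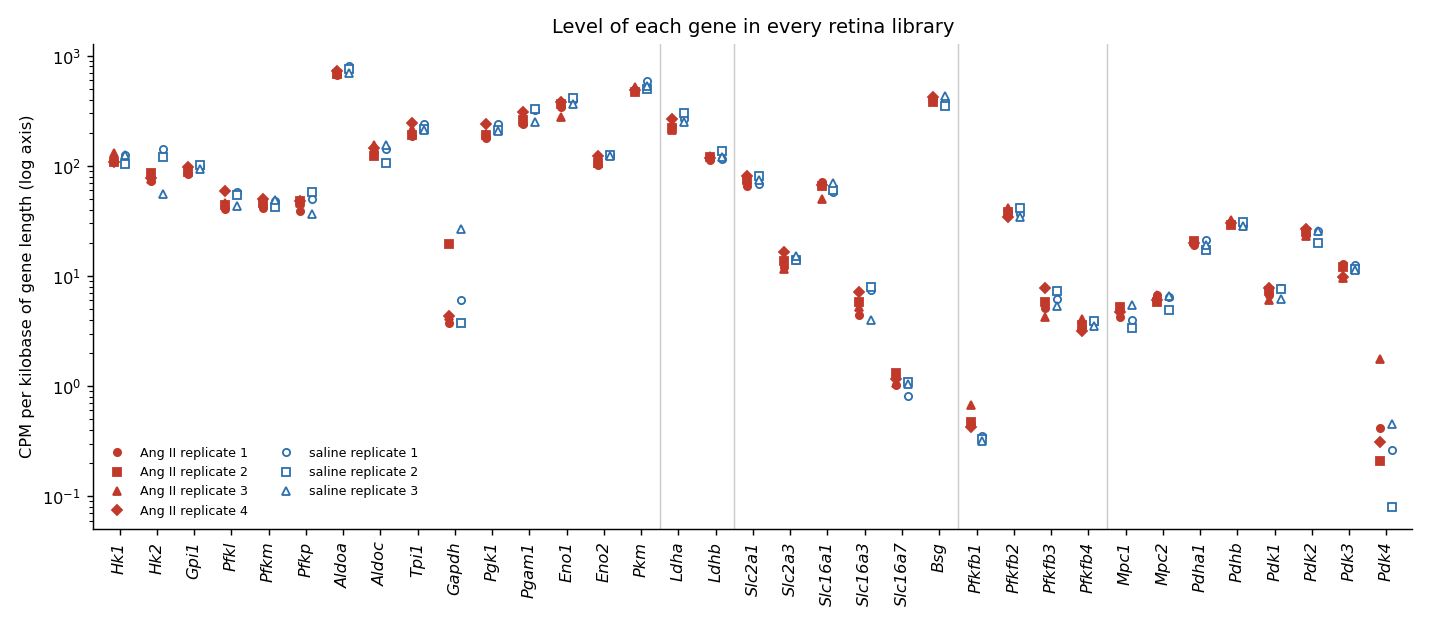
Level of each of the 35 genes in every library, in CPM per kilobase of gene length on a log axis; filled red symbols are the 4 Ang II libraries, open blue symbols the 3 saline libraries, and grey lines separate the steps of the pathway. Most genes show tight, overlapping groups, whereas Gapdh splits into 2 high and 5 low libraries and Pdk4 stands high in Ang II replicate 3.

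Hexokinases phosphorylate glucose and so hold it in the cell. Hk2 (ENSMUSG00000000628, chromosome 6, 82725025 to 82774454, mm10) had levels of 431, 515, 453 and 460.5 CPM under Ang II (replicates 1 to 4, the order used throughout) against 858, 725 and 330.5 CPM under saline (replicates 1 to 3). Saline replicates 1 and 2 were above all Ang II libraries, and saline replicate 3 was the lowest of all 7. The highest saline value was 2.6 times the lowest, while in Ang II that ratio was 1.19. The log2 fold change was -0.46 ± 0.32 (SE), with an edgeR adjusted p of 0.982. Without saline replicate 3 it was -0.76 with an edgeR adjusted p of 0.00076, and Hk2 was then 1 of 117 genes called (0.667%) and the only member among them. Without saline replicate 1 it was -0.18 with an adjusted p of 0.996. Over all 11 alternative fits the value stayed below 0, and the adjusted p ran from 0.00076 to 1.

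Hk1, the hexokinase of most neurons, was at 932, 916, 1122 and 917 CPM under Ang II against 1062, 880.1 and 1079 CPM under saline, and its groups overlapped fully (log2 fold change -0.05 ± 0.10, SE). The Hk2 share of the 2 hexokinases, from counts per kilobase, was 39.8%, 44.6%, 36.6% and 41.8% in Ang II and 53.6%, 54.1% and 30.5% in saline. The means were 40.7% ± 3.34 (SD, n = 4) and 46.0% ± 13.5 (SD, n = 3), with an exact two-sided permutation p of 0.429. Lengths of the principal transcripts in place of gene lengths gave lower levels of this share, 25.2% in Ang II and 30.1% in saline, and the same direction.

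Several libraries differed in markers of neighbouring tissue, and these values stand beside those of Hk2. The summed level of 14 pigment epithelium markers ranged from 1157 to 2008 CPM in Ang II and was 223, 256 and 1045 CPM in saline replicates 1 to 3. Of these markers 13 lay above 0 in Ang II (median log2 fold change 1.36), with 9 higher in each Ang II library than in any saline library (3.18% of all genes). Over all genes edgeR called 0 of them and DESeq2 1, and 5 had an unadjusted edgeR p under 0.05. The saline library with the lowest Hk2 was thus the saline library with most pigment epithelium RNA. This opposite order did not extend to the Ang II libraries, each of which was above saline replicate 3 in both Hk2 and the marker sum. Rod markers summed to between 53610 and 65850 CPM in Ang II and between 66950 and 71570 CPM in saline, and all 10 lay below 0 (median -0.21), 7 of them with an unadjusted edgeR p under 0.05 and 0 called. The 8 cone markers (691 to 938 CPM against 819 to 1030 CPM) also all lay below 0. The part of these markers in the values of the glycolytic genes was not tested.

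**Figure D3:**
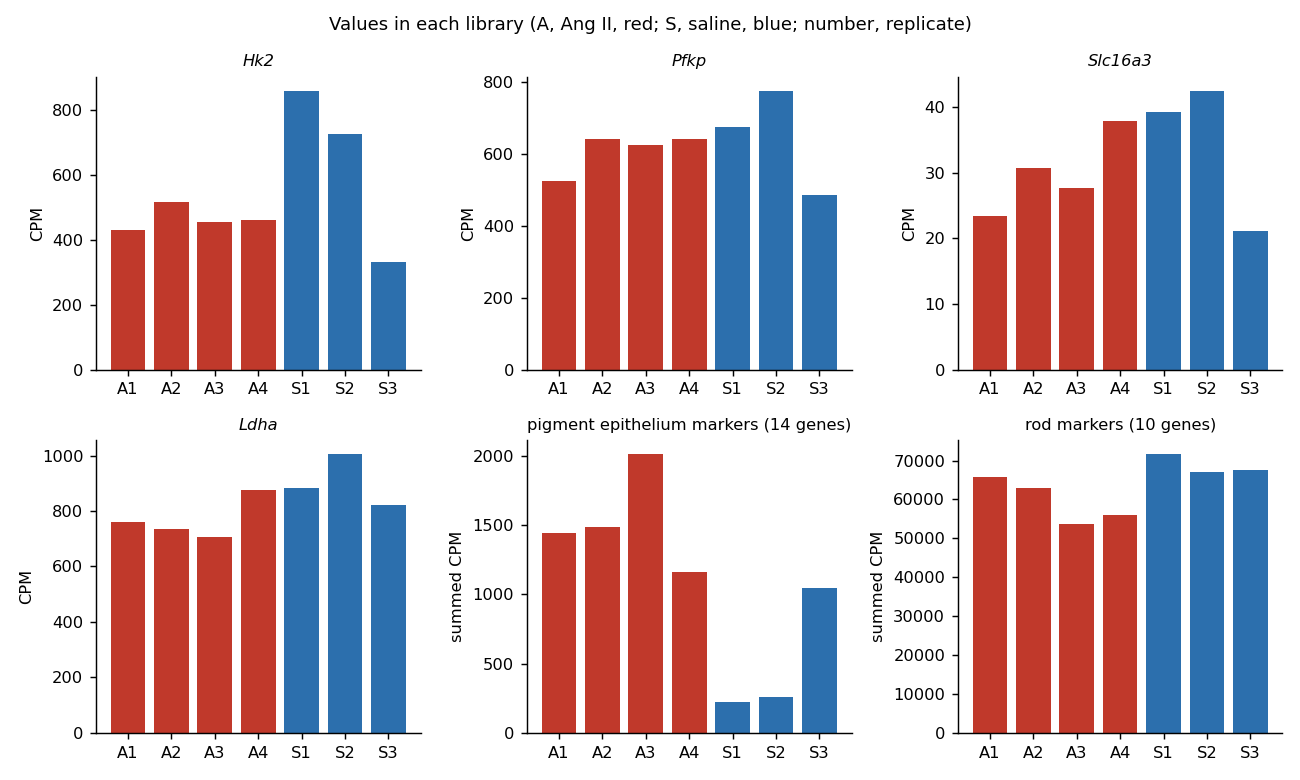
Levels of Hk2, Pfkp, Slc16a3 and Ldha (CPM) and summed levels of 14 pigment epithelium and 10 rod markers (summed CPM) in each library; red bars are Ang II replicates 1 to 4 and blue bars saline replicates 1 to 3. In Hk2, Pfkp and Slc16a3 saline replicates 1 and 2 are the highest bars and saline replicate 3 the lowest, while pigment epithelium markers are lowest in saline replicates 1 and 2.

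The order seen in Hk2, with saline replicates 1 and 2 highest and saline replicate 3 lowest, recurred in 2 further members. Pfkp, the platelet-type phosphofructokinase gene, was at 525, 639, 622.5 and 640.5 CPM under Ang II against 675, 773.5 and 485 CPM under saline (log2 fold change -0.09 ± 0.14, SE). Slc16a3 (chromosome 11, 120948480 to 120960868), which encodes MCT4, the lactate exporter of strongly glycolytic cells, was at 23.3, 30.6, 27.6 and 37.8 CPM under Ang II against 39.3, 42.4 and 21.2 CPM under saline. Its log2 fold change was -0.20 ± 0.25 (SE), and -0.45 without saline replicate 3. These 2 genes were singled out after their values were seen.

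Phosphofructokinase commits glucose to glycolysis. Its 3 isoforms took near-equal shares per kilobase of gene length, in Ang II 34.1% for Pfkl, 33.2% for Pfkm and 32.7% for Pfkp, and in saline 35.3%, 32.2% and 32.5%. This balance depended on the length used. With lengths of the principal transcripts, Pfkp took 51.5% ± 2.18 in Ang II (SD, n = 4) and 51.0% ± 4.73 in saline (SD, n = 3), since its annotated exons add up to 13401 bases and its principal transcript to 4145. Pfkl, the liver-type gene, was at 271, 296, 308 and 391 CPM under Ang II against 387, 365 and 287 CPM under saline, with full overlap (log2 fold change -0.13 ± 0.13, SE).

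From aldolase to pyruvate kinase the groups lay close together. Aldoa was at 1937, 1988, 1987 and 2108 CPM under Ang II against 2347, 2227 and 2014 CPM under saline (log2 fold change -0.13 ± 0.09, SE). It overlapped by Ang II replicate 4 alone, which exceeded saline replicate 3. A second gene row named Aldoa (ENSMUSG00000114515), upstream of the first on the same strand, had 107 to 239 counts per library and a log2 fold change of -0.55 (edgeR adjusted p 0.982). Aldoc, the brain-type aldolase gene, took 16.8% ± 1.25 of the aldolases in Ang II (SD, n = 4) and 15.1% ± 2.97 in saline (SD, n = 3).

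Eno1 was at 1852, 1953, 1505 and 2026 CPM under Ang II against 2110, 2244 and 1957 CPM under saline. Ang II replicate 3 was the lowest library, and Ang II replicate 4 exceeded saline replicate 3 (log2 fold change -0.20 ± 0.10, SE). Eno2, the neuronal enolase gene, lay between 481 and 579 CPM in Ang II and between 574 and 590 CPM in saline (log2 fold change -0.18 ± 0.09, SE), overlapping by 1 Ang II library. Both enolases had similar fold changes, and the Eno2 share was 24.4% ± 2.30 (SD, n = 4) and 24.1% ± 0.997 (SD, n = 3).

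Pkm was at 2368, 2346, 2583 and 2462 CPM under Ang II against 2960, 2477 and 2680 CPM under saline (log2 fold change -0.15 ± 0.09, SE). Its M1 and M2 splice forms share a gene and were counted together, so they were not analysed here. Gpi1 (glucose phosphate isomerase), Tpi1, Pgk1 and Pgam1 had log2 fold changes of -0.12, -0.09, -0.13 and -0.18, each with an SE of 0.09 to 0.11.

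Gapdh, the glyceraldehyde 3-phosphate dehydrogenase gene and a common reference gene, had the least even counts among the enzymes. It had 274, 1314, 282 and 298 counts under Ang II, against 403, 221 and 1823 under saline. Ang II replicate 2 and saline replicate 3 were high and the other 5 libraries low, across the groups. At 9.8 CPM per kilobase it lay at a small fraction of the level of the enzymes that precede and follow it, Tpi1 and Pgk1. A search of GENCODE M21 transcripts (alignment of at least 300 bases at 95% identity or more) found 77 other genes that match its principal transcript, 74 of them pseudogenes in the count table. Those genes together held 575 to 1030 counts per library. For 21 members that search found no other gene, and no further member had as many as 10. How reads that fit several places were counted is not given in the sources used here.

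Lactate dehydrogenase converts pyruvate to lactate and back. Ldha (ENSMUSG00000063229, chromosome 7, 46841475 to 46855627), whose product favours lactate formation, was at 759, 735, 705 and 875 CPM under Ang II against 882, 1004 and 822 CPM under saline. Ang II replicate 4 lay above saline replicate 3, and the other 3 Ang II libraries were below every saline library. The log2 fold change was -0.23 ± 0.10 (SE), with an unadjusted p of 0.0348 and an edgeR adjusted p of 0.982. It stayed below 0 without each library in turn, between -0.30 and -0.15. Ldhb, whose product favours the way back to pyruvate, was at 176, 187, 193 and 184.5 CPM under Ang II against 180.2, 215 and 189.9 CPM under saline (log2 fold change -0.08 ± 0.09, SE). The Ldhb share was 33.8% ± 2.52 in Ang II (SD, n = 4) and 31.3% ± 1.33 in saline (SD, n = 3), a difference of 2.46 percentage points with an exact two-sided permutation p of 0.2 (adjusted p 0.766 over 19 shares).

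Glucose uptake genes were close between the groups. Slc2a1 was at 231.5, 262.5, 265.5 and 281 CPM under Ang II against 241, 281.5 and 259.5 CPM under saline (log2 fold change 0.00 ± 0.09, SE). Slc2a3, which encodes the neuronal transporter GLUT3, took 15.3% ± 1.60 of the 2 glucose transporters in Ang II (SD, n = 4) and 16.2% ± 1.24 in saline (SD, n = 3). Its log2 fold change was -0.10 ± 0.11 (SE).

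On the side of lactate transport, Slc16a1, which encodes MCT1, was the main monocarboxylate transporter gene with 90.3% ± 1.89 of the family in Ang II (SD, n = 4) and 89.3% ± 3.53 in saline (SD, n = 3). It was at 315, 292, 223 and 294 CPM under Ang II against 255, 267 and 311 CPM under saline, with full overlap (log2 fold change 0.02 ± 0.12, SE). The Slc16a3 share was 5.72%, 7.89%, 9.18% and 9.50% in Ang II and 11.2%, 11.5% and 5.28% in saline. Saline replicate 3 thus stood below all other libraries and the 2 remaining saline libraries above them. Slc16a7, which encodes the high-affinity carrier MCT2, took 1.65% and 1.40% (log2 fold change 0.22 ± 0.16, SE). Bsg lay between 694 and 762.5 CPM in Ang II and between 635 and 788.5 CPM in saline, so the saline range enclosed the Ang II range (log2 fold change 0.06 ± 0.09, SE).

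Slc16a8, which is no member but encodes MCT3, the lactate carrier of the pigment epithelium, was at 46.1, 44.9, 67.1 and 43.1 CPM under Ang II against 7.06, 7.71 and 36.4 CPM under saline. All Ang II libraries were above all saline libraries, with saline replicate 3 close to them. Its log2 fold change was 1.55 ± 0.68 (SE) with an edgeR adjusted p of 0.982. It belongs to the pigment epithelium marker list above and followed the order of that list in saline.

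The PFKFB enzymes make and remove fructose 2,6-bisphosphate, the activator of phosphofructokinase. Pfkfb2, the heart-type gene, dominated with 79.3% ± 3.09 of the family in Ang II (SD, n = 4) and 78.4% ± 0.525 in saline (SD, n = 3). Its level was 275, 275, 301 and 246 CPM in Ang II and 266.5, 298 and 249.6 CPM in saline, with a log2 fold change of 0.02 ± 0.10 (SE). Pfkfb3, the hypoxia-responsive form with high kinase activity, ranged from 32.1 to 58.6 CPM in Ang II and from 40.4 to 54.8 CPM in saline, and Pfkfb4 from 15.3 to 19.9 CPM and from 17.1 to 19.1 CPM. In both, the Ang II range enclosed the saline range.

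Pfkfb1 (ENSMUSG00000025271, chromosome X, 150588229 to 150643878), the liver and muscle form, was the member whose groups did not overlap, at counts that limit its precision. Under Ang II it had 32, 31, 43 and 28 counts, against 23, 19 and 21 under saline. The levels were 1.82, 1.89, 2.72 and 1.69 CPM against 1.43, 1.33 and 1.28 CPM. Its log2 fold change was 0.59 ± 0.33 (SE) with an unadjusted p of 0.0947 and an edgeR adjusted p of 0.982, and 0.42 without Ang II replicate 3. Its share of the family was 1.05% ± 0.192 in Ang II (SD, n = 4) and 0.706% ± 0.0658 in saline (SD, n = 3). The exact two-sided permutation p of that share was 0.0286, the lower limit for 35 arrangements of the libraries. Adjusted over the 19 shares it was 0.543.

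Of the 19 isoform shares tested in 9 families, 0 passed after adjustment (smallest adjusted p 0.543). The design all but fixed this, since 11 shares would have had to reach the smallest possible p of 0.0286 together for any to pass, and the count of 0 does not show that shares were alike. Unadjusted, 1 share, that of Pfkfb1, had an exact p under 0.05. Per kilobase of gene length, every family had the same order of isoforms in all libraries except the hexokinases and the phosphofructokinases. Hk2 exceeded Hk1 on that basis in saline replicates 1 and 2 and in no other library. This switch depended on the length used. In those 2 libraries the Hk2 share was 36.1% and 36.5% with lengths of the principal transcripts, and 44.7% and 45.2% of raw counts. On both of these bases Hk1 led in every library.

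**Figure D4:**
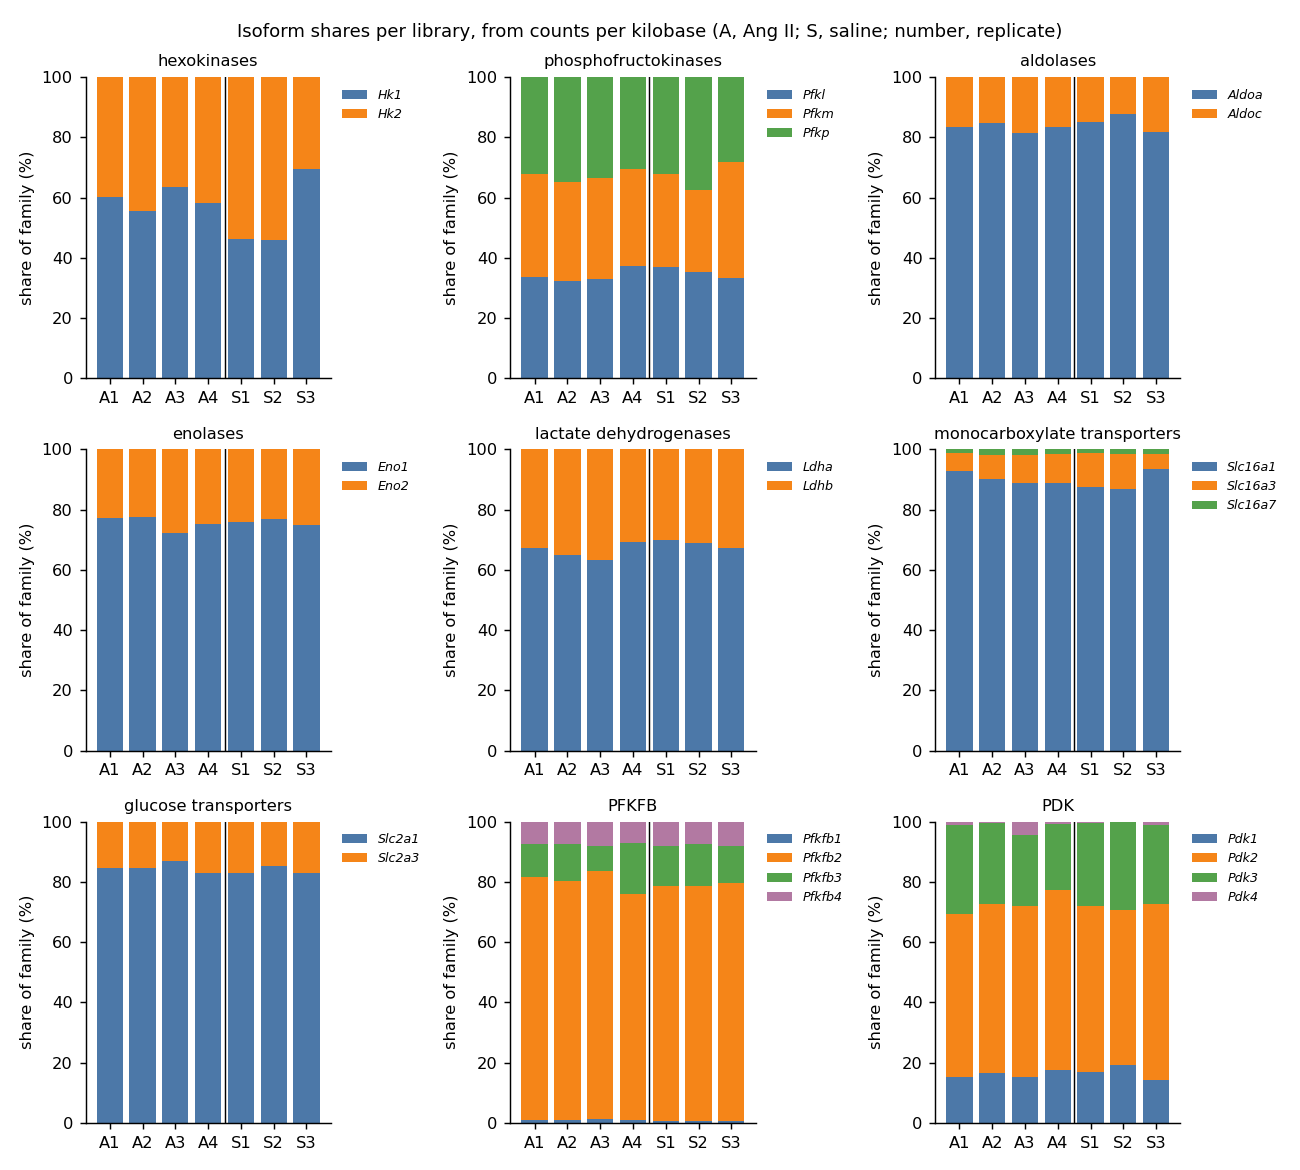
Isoform shares (percent of the family, from counts per kilobase of gene length) in each library; each panel is 1 of 9 families, A1 to A4 are the Ang II libraries and S1 to S3 the saline libraries, split by the black line. The stacks look alike across libraries, apart from the hexokinases, where Hk2 takes 53.6% and 54.1% in saline replicates 1 and 2 and 30.5% in saline replicate 3.

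Pyruvate enters mitochondria through a carrier of MPC1 and MPC2. Mpc1 lay between 8.85 and 10.9 CPM in Ang II and between 6.94 and 11.4 CPM in saline, and Mpc2 between 42.8 and 49.2 CPM and between 35.8 and 48.3 CPM. Their log2 fold changes were 0.17 ± 0.19 and 0.08 ± 0.12 (SE), and both were lowest in saline replicate 2. The pyruvate dehydrogenase subunit genes Pdha1 (0.07 ± 0.09) and Pdhb (0.06 ± 0.08) lay as close to 0. The transcript search described for Gapdh also found 1 pseudogene that matches Mpc1. It held 286 to 377 counts per library, against 99 to 187 for Mpc1, and was highest in saline replicate 2, where Mpc1 was lowest. How reads were divided between Mpc1 and this pseudogene was not tested, which limits the level and fold change of Mpc1.

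Of the pyruvate dehydrogenase kinases, Pdk2 led with 56.7% ± 2.35 of the family in Ang II (SD, n = 4) and 55.1% ± 3.67 in saline (SD, n = 3). Its level was 74.4, 78.6, 72.7 and 83.8 CPM in Ang II and 80.3, 63.7 and 80.4 CPM in saline (log2 fold change 0.05 ± 0.10, SE). Pdk3 followed with 25.6% and 27.6%, and Pdk1, a hypoxia-inducible kinase gene, with 16.1% and 16.8%. Their log2 fold changes were -0.10 ± 0.13 and -0.04 ± 0.11 (SE).

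Pdk4, the kinase gene that fasting and muscle work raise, had 26, 12, 97 and 18 counts under Ang II, against 15, 4 and 26 under saline. Ang II replicate 3 was far above the rest, and the other 3 Ang II libraries lay within the saline range. The log2 fold change was 1.30 ± 0.85 (SE, edgeR adjusted p 0.982), and 0.22 without Ang II replicate 3. In that library the summed level of 11 skeletal muscle markers was 399 CPM, against 121 to 154 CPM in the other 6, and the myosin gene Myh4 was at 85.0 CPM, where the others had at most 1.57 and Ang II replicate 2 and saline replicate 3 had 0. Of the muscle markers, 10 lay above 0 in Ang II. Their summed level in Ang II replicates 1, 2 and 4 (130.5, 126.5 and 121.2 CPM) did not exceed the saline range (127.2 to 153.7 CPM). The part of muscle RNA in the Pdk4 value was not tested.

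The other genes of the pathway were read in the same fit, and in each of 7 further lists edgeR called 0 genes over all genes. Of 17 tricarboxylic acid cycle genes 14 lay below 0 (median log2 fold change -0.05), with Mdh2, the mitochondrial malate dehydrogenase gene, at -0.16 ± 0.08 (SE), Ogdh at -0.16 ± 0.09 and, the other way, Suclg2 at 0.48 ± 0.22. In this list 5 genes were lower in each Ang II library than in any saline library, where 2.73% of all genes were. The same held for 2 shuttle genes, 2 glycogen and gluconeogenesis genes, 1 pentose phosphate gene and 2 of the further isoenzymes and carriers, of which 2 others were higher throughout (3.18% of all genes). Of 9 genes of the shuttles that carry cytosolic NADH into mitochondria 6 lay below 0 (median -0.05), led by the aspartate aminotransferase genes Got1 (-0.20 ± 0.09) and Got2 (-0.14 ± 0.08). Of 8 pentose phosphate genes 6 lay below 0 (median -0.03), with G6pdx at -0.13 ± 0.08, and of 11 tested glycogen and gluconeogenesis genes 7 did (median -0.08), with the glycogen phosphorylase gene Pygm at -0.16 ± 0.09.

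The 6 further genes of the pyruvate dehydrogenase complex and its phosphatases were split 3 to 3 (median 0.01), with Pdp2 at 0.10 ± 0.11 (SE). Of 18 tested regulators of glycolytic genes 9 lay below 0. They included Txnip, which encodes an inhibitor of glucose uptake, at 0.02 ± 0.17, and Nxnl1, the gene of a rod-derived cone survival factor that binds a form of basigin, at -0.10 ± 0.10. Of 20 tested genes for further isoenzymes and carriers 9 lay below 0 (median 0.03). Among them Slc2a12, which encodes the glucose transporter GLUT12, was at 6.92, 6.66, 10.3 and 4.95 CPM under Ang II against 1.30, 1.89 and 4.71 CPM under saline. Its log2 fold change was 1.44 ± 0.40 (SE), not called by edgeR (adjusted p 0.982) and called by DESeq2 (adjusted p 0.0347). Its values in saline had the order of the pigment epithelium markers too. Adpgk, the gene of an ADP-dependent glucokinase, was at -0.24 ± 0.11 and lower in each Ang II library than in any saline library.

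Libraries held between 14655431 and 17563493 counts, and their levels were rank-correlated across genes at 0.976 to 0.99 (Spearman). Every pair of libraries differed beyond counting error (chi-square over its degrees of freedom, 8.54 to 21.4). The 35 members took between 1.45% and 1.67% of all counts. Apoe, which the series text gives as deleted, had 150 to 406 counts in every library, a level of 10.5 to 25.7 CPM. Whether these reads come from an intact gene was not tested, so they do not settle the genotype. Defining genes of retina were abundant, as the rod sums show. Lens markers, of which all 7 tested lay above 0, summed to between 1.57 and 3285 CPM in Ang II and between 43.7 and 644 CPM in saline. Summed levels in Ang II and saline were 1270 to 1410 and 1373 to 1508 CPM for 7 bipolar cell markers, 623.5 to 815 and 702.5 to 729.5 CPM for 7 amacrine and horizontal cell markers, and 768 to 1033 and 822 to 941.5 CPM for 7 ganglion cell markers. They were 3614 to 4618 and 3997 to 4687 CPM for 7 Müller glia markers, 358 to 418 and 378 to 402 CPM for 8 endothelial and pericyte markers, 45.4 to 54.6 and 35.4 to 44.5 CPM for 8 microglia markers, and 8.92 to 150.1 and 46.9 to 78.5 CPM for 5 blood markers.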

How the data were processed

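Poly-A RNA of 7 retina libraries (4 Ang II, 3 saline) was primed with random hexamers without a step that marks the strand, per the labels' protocols, so reads of a gene and of an overlapping antisense gene cannot be told apart. The deposited table holds raw read counts per gene, made by the authors with CASAVA, HISAT2 2.0.5 and featureCounts 1.5.0-p3 on mm10, per the submitters' processing notes. Annotation release, strand setting and the rule for reads that fit several places are not given in the sources used here. The deposited table also gives a gene length in bases.

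Columns were matched to samples by their descriptions, and groups followed the treatment labels. The quasi-likelihood test of edgeR 4.0.16 (R 4.3.3; TMM scaling, filterByExpr, robust, two-sided, group as sole term) was fitted on all genes of all 7 libraries, and 17078 genes were tested. Calls are a Benjamini-Hochberg adjusted p under 0.05. The SE was derived from the F statistic, as the fold change (log2, unsigned) divided by its root. CPM are counts over the TMM-scaled library size. Isoform shares used counts per kilobase, with exact permutation over 35 arrangements. Near copies were searched with blastn 2.17.0. The edgeR step was tested on simulated data, with changes larger than those fitted here for every member but Pdk4. It recovered most of the changed genes and made more false calls than the threshold aims at. Recovery of changes as small as those of the other members was not tested. Alternatives were DESeq2 1.42.0, RLE scaling, no filter, a replicate block and leaving out each library. Lengths of principal transcripts were added after the data were seen.

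The 35 members and all lists were chosen with earlier results of these data known. Values by library are given for members that do not overlap between groups, have an unadjusted p under 0.05, are called under an alternative or have a share with p under 0.05, and for the main isoform of each family. Of further lists, up to 3 genes of smallest p and Slc16a8, Txnip and Nxnl1 are named, and any other gene was chosen after its values were seen. Of the gene symbols searched, 32 of 35 had a promoter in the RefSeq table.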

Additional observations from a re-analysis of the deposited data

Results flagged for a closer look

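Among the Ang II libraries, 54 sets of 4 values (35 gene levels and 19 isoform shares) were examined for a library far from the other 3, and 6 were found. Chance flags about 1 in 20 such sets, but shares use the same counts as levels, and Pdk4 was flagged in both. Ang II replicate 3 was the distant library in 4 of the 6 flagged sets. In it Hk1 was at 1122 CPM (916 to 932 in the other 3), Pdk4 at 6.13 CPM (0.733 to 1.47), the Pfkfb1 share of the PFKFB genes at 1.34% (0.929 to 0.987%) and the Pdk4 share of the PDK genes at 4.33% (0.471 to 0.967%). That library also had the highest summed level of skeletal muscle markers, 399 CPM, and of pigment epithelium markers, 2008 CPM. In Ang II replicate 1, Pfkp was at 524.8 CPM, below 622.5 to 640.5 CPM in the others. In Ang II replicate 2, Gapdh was at 80.3 CPM, above 15.5 to 18.0 CPM, and saline replicate 3 was as far above its own group with 111 CPM. Groups of 3 were not examined in this way.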

How the results depend on the processing

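The number of genes called moved from 0 to 35 with DESeq2, 98 with no filter on low counts and 56 with the replicate block, and ran from 0 to 117 when each library was left out, with 117 without saline replicate 3. Of the members, 0 were called in each of these settings, except 1 without saline replicate 3, Hk2 (range 0 to 1). The groups share replicate numbers 1 to 3 without any statement that a number marks 1 animal or batch. The deviations of same-numbered libraries correlated at -0.069, -0.021 and 0.046, and only saline replicate 3 correlated best with its own number. So few libraries cannot show whether a number marks a pair or a batch. The block left 24 members below 0 and turned Slc16a1 to -0.016. With it 9 members had an unadjusted p under 0.05, where 1310 of 17078 genes had such a p. Slc2a1 was at 0.001 with DESeq2 and with RLE scaling and at 0.004 with no filter, all within its SE. Members below 0 ranged from 20 to 27, and their median from -0.09 to -0.03, when each library was left out.

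Of 35 members, 21 kept their sign in all 11 alternatives and 14 did not. When each library was left out, the log2 fold changes of these ran from -0.141 to 0.007 (Hk1), -0.091 to 0.028 (Pfkm), -0.248 to 0.063 (Pfkp), -0.089 to 0.169 (Aldoc), -1.568 to 0.707 (Gapdh), -0.044 to 0.118 (Slc16a1), -0.015 to 0.15 (Bsg), -0.053 to 0.054 (Slc2a1), -0.035 to 0.086 (Pfkfb2), -0.296 to 0.006 (Pfkfb3), -0.005 to 0.152 (Pdha1), -0.134 to 0.025 (Pdk1), -0.057 to 0.11 (Pdk2) and -0.041 to 0.171 (Mpc2). Of 19 shares 11 kept their sign, and the others ran in percentage points from -1.42 to 4.14 (Pfkm), -2.02 to 2.58 (Pfkp), -0.756 to 0.917 (Eno2), -0.166 to 3.03 (Slc16a1), -0.0462 to 2.35 (Pfkfb2), -2.52 to 0.388 (Pfkfb3), -1.99 to 0.556 (Pdk1) and -0.197 to 3.47 (Pdk2). In each setting 0 shares passed. Without 1 library, the exact test has too few arrangements to pass. Causes of these shifts were not tested. Depth limits Pfkfb1 and Pdk4, with 4 to 97 counts per library.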
